A study of Caenorhabditis elegans with 2 samples.

Results

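The translation factors and aminoacyl-tRNA synthetases of C. elegans form a group of 70 protein-coding genes, among 19985 in the Ensembl annotation, and their association with CEH-16 was described from chromatin immunoprecipitation followed by sequencing. Members were taken by symbol alone, with no measured value in the rule. The group itself was chosen with earlier results of these data known. They carried symbols beginning with eif-, eef-, ife- or iff-, or made of 1 letter, ars- and a number. Roles were assigned by symbol alone, without a check of each gene's function. They gave 30 initiation factors (eif- and ife-), 8 elongation factors and eIF5A proteins (eef- and iff-), and 32 synthetases. The single group consisted of 2 biological replicates of whole L3 larvae of both sexes, pooled and of unstated age, from strain OP82 with the genotype unc-119(tm4063) III; wgIs82. This strain is a transgenic line that stably expresses CEH-16, the worm engrailed homologue, with GFP-FLAG at its C terminus, so the tagged protein comes from a transgene. Both replicates carry the same unc-119 allele and the same transgene, the line is named as 1 donor strain, and no condition, genotype or stage was compared. Whole animals mix all tissues, and the lists hold no expression values with which the labelled material could be checked.

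Protein synthesis runs in steps that these genes serve. Synthetases load each amino acid onto its tRNA, initiation factors bring the small ribosomal subunit, the initiator tRNA and the mRNA together, and elongation factors deliver charged tRNAs and move the ribosome along. CEH-16 itself is a homeodomain protein known for its role in the seam cells of the worm epidermis.

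A gene was credited with a peak where the summit lay in its body or up to 2000 bp upstream. The lists were the pooled list of 30000 peaks, the 214 peaks that passed the irreproducible discovery rate (IDR), called thresholded here, and the relaxed lists of replicate 1 (19150 peaks) and replicate 2 (30000 peaks). The signal is the authors' value per peak, on a scale that was not given in the sources used here. Lowest listed signals were 11.5 in the pooled list, 6.13 in replicate 1 and 8.14 in replicate 2, so a gene without a summit can still have signal below these values. Each list has its own scale, with median signals of 15.1 in the pooled list, 7.94 in replicate 1 and 10.8 in replicate 2, so replicates are compared by rank as well. The lists give no read counts, and the depth of each replicate is unknown. With 1 group and no set test, the members' counts are set beside the same counts over all protein-coding genes, and no p-value is given.

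The strongest of these peaks lay upstream of elongation genes, and the sequences around 3 of the 4 thresholded summits, those of elongation and eIF5A genes, are shown. None of the 3 windows overlaps an exon of a protein-coding gene. Each line gives the RefSeq WBcel235 (ce11) sequence from 75 bp before to 75 bp after the summit, 5′ to 3′ in the direction of the gene. Capitals mark matches, on either strand, to 5 short words. TAATTA is a core recognised by engrailed-type homeodomains and TAATTG is a variant of it. GAGAGA was frequent at strong peaks in earlier results of these data, as were the word CGCGCA and the word AGCGTG. The first sequence is chrII:8561369-8561519 on the minus strand, the second chrIII:6971978-6972128 on the minus strand, and the third chrX:7823180-7823330 on the plus strand.
iff-2: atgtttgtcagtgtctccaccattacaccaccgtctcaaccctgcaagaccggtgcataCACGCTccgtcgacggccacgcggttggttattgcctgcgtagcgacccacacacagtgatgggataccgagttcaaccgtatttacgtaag
eef-1A.1: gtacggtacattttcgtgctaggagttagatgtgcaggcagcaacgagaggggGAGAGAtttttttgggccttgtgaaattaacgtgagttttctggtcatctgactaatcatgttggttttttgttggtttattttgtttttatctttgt
eef-1A.2: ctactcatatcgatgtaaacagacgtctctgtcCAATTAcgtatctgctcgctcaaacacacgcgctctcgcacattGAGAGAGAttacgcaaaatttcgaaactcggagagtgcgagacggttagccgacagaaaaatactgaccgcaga

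The TAATTA core was in none of the 3 printed windows. GAGAGA was in both eEF1A windows, AGCGTG in that of iff-2 (read on the other strand as CACGCT) and TAATTG in that of eef-1A.2 (read as CAATTA). Within 50 bp of the summit, GAGAGA was present at 6.73% of the 29975 nuclear pooled summits and at 21.2% of the 189 nuclear thresholded ones. AGCGTG was present at 1.39% and 11.1% of these, and TAATTG at 9.17% and 9.52%. A match describes the letters only.

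Translation genes were more often among the strongest peaks than protein-coding genes at large. A thresholded summit lay in the window of 4 of the 70 members (5.71%), against 1.25% of all protein-coding genes. A summit among the 1000 strongest pooled peaks, which reached down to a signal of 29.2, lay in the window of 14 members (20%), against 5.21% of all genes. These 14 were iff-2, eef-1A.1, eef-1A.2, eif-3.C, eif-3.J, eef-2, eif-3.B, lars-1, eif-1, aars-2, eif-3.G, eif-2Bgamma, vars-1 and gars-1. They made up 4 of 8 elongation and eIF5A genes, 6 of 30 initiation factors and 4 of 32 synthetases. For any pooled summit the order depended on the window: 58 members (82.9%) had one against 72.5% of all genes, but with gene bodies only the shares were 47.1% and 47.3%. With each summit assigned to the nearest protein-coding start, members were the lower, at 54.3% against 67.6%. For the 1000 strongest peaks members were higher under both of these settings, at 4.29% against 1.85% and 15.7% against 4.39%. With gene bodies only, 0 members had a thresholded summit, against 0.345% of all genes.

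By the median only, windows of members were slightly longer than those of all genes. The median window was 4411 bp for members and 4026 bp for all genes, and pooled summits numbered 3.0 and 3.04 per 10 kb. In the 2000 bp upstream alone they numbered 4.79 and 3.47 per 10 kb, and in gene bodies alone 1.87 and 2.77. Summits among the 1000 strongest were at 4.45 per 100 kb of member windows and 1.17 per 100 kb over all genes. Cytosolic ribosomal protein genes, whose products the factors work with, had 16 of 78 with a thresholded summit (20.5%) and 27 with one among the 1000 strongest (34.6%). The members' shares with a thresholded summit (5.71%) and among the 1000 strongest (20%) thus lay between those of all genes and the ribosomal protein genes. These differences were not tested. Pooled summits per 10 kb did not follow this order, at 5.14 for the ribosomal protein genes.

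**Figure D1:**
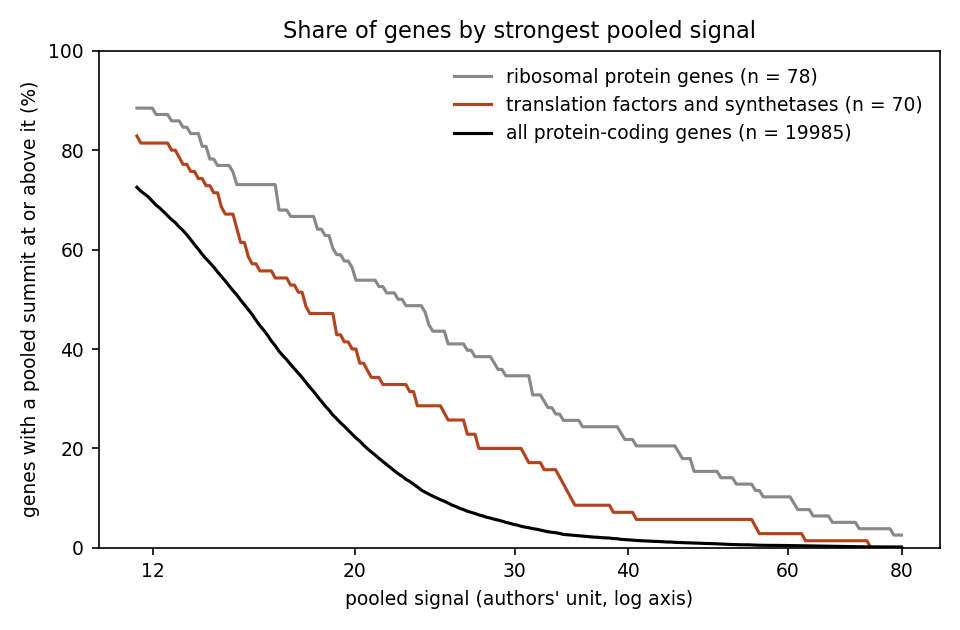
Share of genes (y axis, percent) whose strongest pooled signal reaches the value on the x axis (authors' unit, log axis), for 70 translation factors and synthetases, 78 ribosomal protein genes and 19985 protein-coding genes. At a signal of 30 the shares are 20%, 34.6% and 4.68%, and at 50 they are 5.71%, 15.4% and 0.816%.

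The elongation and eIF5A genes held the strongest peaks of the group. The eIF5A gene iff-2, whose product helps ribosomes past stalling sequences, had a signal of 55.0 in replicate 1, 19.3 in replicate 2 and 73.9 in the pooled list, where it ranked 53. Its summit lay 77 bp upstream of the start, in a peak on II from 8561269 to 8561618. The replicates stood far apart here: the peak ranked 26 in the replicate 1 list and 1346 in the replicate 2 list, although their summits were 24 bp apart. The gene paralogous to it, iff-1, had 11.9 in replicate 1, 17.1 in replicate 2 and 26.6 in the pooled list. Its pooled summit lay 3 bp upstream of the start, and the strongest replicate 1 summit was 673 bp away from the strongest replicate 2 summit.

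Both eEF1A genes, which encode the factor that carries charged tRNAs to the ribosome, had thresholded summits of like size. At eef-1A.1 the signal was 28.7 in replicate 1, 30.3 in replicate 2 and 62.1 in the pooled list, with the summit 341 bp upstream of the start on III at 6972053. At eef-1A.2 it was 24.0, 26.8 and 55.6 in the same order, with the summit 399 bp upstream on X at 7823255. Both genes were high in both replicates, at ranks 79 and 188 for eef-1A.1 and 139 and 285 for eef-1A.2, and the replicate summits lay 43 bp and 19 bp apart. The encoded proteins were identical over 463 residues and the coding sequences 94.0% identical, so reads from within the genes could be confused. The upstream peaks were not repeated: none of the 315 stretches of 36 bases in either peak occurred elsewhere in the genome.

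The eef-1A.1 peak lay between divergent genes and was nearer to the other one. It was 200 bp from the start of rfc-4, a subunit of the clamp loader of DNA replication, so the peak cannot be assigned to eef-1A.1 alone. The eef-1A.2 summit lay in no other protein-coding window.

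The translocation factor gene eef-2 had its strongest pooled summit inside the gene, in an intron 127 bp from the start. The signal was 20.9 in replicate 1, 32.3 in replicate 2 and 38.4 in the pooled list, below the 43.6 at which the thresholded list stopped. The replicate 1 summit lay 39 bp upstream of the start and the replicate 2 summit 127 bp inside, 166 bp apart. Only eef-1A.1 and eef-2 (2 of 70, 2.86%, against 0.47% of all genes) had a summit among the 214 strongest of both replicate lists. The exchange factor gene eef-1B.1 had 20.8 in replicate 1, 14.4 in replicate 2 and 25 in the pooled list, with summits 278 bp apart in the replicates. Its pooled summit lay in its own 5′ UTR. At eef-1B.2 the pooled signal was 19.1 and replicate 1 had no summit, and at eef-1G the replicate 1 list alone had a summit, at 12.2.

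**Figure D2:**
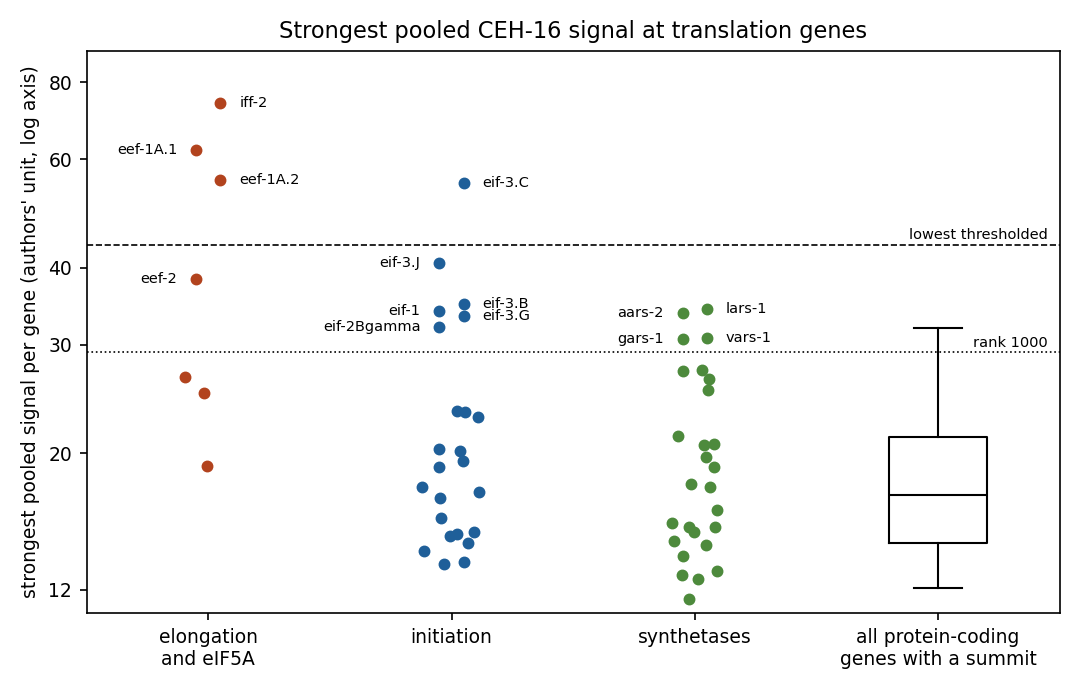
Strongest pooled signal (y axis, authors' unit, log axis) of each member with a pooled summit, by role, with names for the 14 among the 1000 strongest peaks. The box shows the quartiles and the whiskers the 5th and 95th percentiles of all protein-coding genes with a summit. The dashed line is the lowest thresholded signal, 43.6, and the dotted line that of rank 1000, 29.2; iff-2, eef-1A.1, eef-1A.2 and eif-3.C lie above the dashed line.

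Among the initiation factors, 4 of the 11 eIF3 subunit genes named eif-3 reached the 1000 strongest peaks (36.4%, against 5.21% of all genes). The eIF3 complex holds the small subunit ready for mRNA recruitment. Its core subunit gene eif-3.C had the only thresholded summit of this role, at 13.5 in replicate 1, 40.8 in replicate 2 and 54.9 in the pooled list. The summit lay 256 bp upstream of the start on I at 9979918. Here replicate 2 held the peak higher, the reverse of iff-2: it ranked 1246 in the replicate 1 list and 71 in the replicate 2 list.

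At the other high eIF3 genes the signals of the replicates were nearer to each other, although at eif-3.G they came from different sites. At eif-3.J the signal was 18.8 in replicate 1, 24.6 in replicate 2 and 40.7 in the pooled list. This summit, 939 bp upstream, fell in the 3′ UTR of the neighbour slc-25A46. A weaker pooled summit of 33.9 lay 729 bp inside eif-3.J. At eif-3.B, a scaffold subunit gene, it was 14.0, 17.6 and 34.9 in the same order, 275 bp upstream and with the replicate summits 6 bp apart. At eif-3.G the values were 17.2, 24.3 and 33.4. They came from a pair of sites: pooled summits of 33.4 and 32.8 lay 1092 bp and 240 bp upstream, replicate 1 was strongest at the farther one and replicate 2 at the nearer one, and no replicate 2 summit lay within 200 bp of the farther.

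The remaining eIF3 subunit genes were lower. Pooled signals were 22.9 at eif-3.K, 19.0 at eif-3.H and 17.3 at eif-3.I. No pooled summit was listed for eif-3.D, eif-3.E, eif-3.F or eif-3.L. Genes of 1 complex ranged from rank 112 to absence from the pooled list. The eIF3 subunit gene egl-45 has a symbol outside the rule and was not counted.

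Outside eIF3, eif-1 and eif-2Bgamma were the initiation genes among the 1000 strongest. The start-codon scanning factor gene eif-1 had 14.1 in replicate 1, 18.4 in replicate 2 and 34.0 in the pooled list. The summit, 423 bp upstream, was only 5 bp from the start of the divergent gene vps-24, and the replicate summits lay 6 bp apart. At eif-2Bgamma, a subunit gene of the exchange factor that recharges eIF2, the signal was 8.36, 23.8 and 32.1 in the same order. This summit lay 957 bp upstream in an intron of C15F1.5, within 200 bp of the gene sup-39, annotated as an snRNA. Of the 315 stretches of 36 bases in the eif-2Bgamma peak, 16.2% occurred more than once in the genome, against 0.00% for the peaks of the other 13 members of this set. The part of repeated sequence in its signal was not tested.

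The other eIF2B genes were below rank 1000, at 23.4 for eif-2Bbeta, 19.4 for eif-2Bepsilon, 17.6 for eif-2Bdelta and 14.8 for eif-2Balpha. The eIF2 genes, whose product brings the initiator tRNA, were low too: eif-2beta had 20.2, eif-2gamma 14.3 and eif-2alpha no pooled summit. The cap-binding eIF4E genes were also outside the 1000 strongest. Pooled signals were 23.3 at ife-1, 16.9 at ife-4, 13.3 at ife-2 and 13.2 at ife-3. The gene ife-5 had no summit in any of the lists, the only one of the 70 members without any. At ife-1 the summit was in the replicate 2 list alone (18.4). At ife-4 the values were 16.8 in replicate 1 and 11.3 in replicate 2, from summits that did not match within 200 bp.

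No synthetase gene had a thresholded summit (0 of 32, against 1.25% of all genes, a share near which 0 of 32 lies), and 4 of 32 were among the 1000 strongest peaks (12.5%, against 5.21% of all genes). The leucyl enzyme gene lars-1 had 7.66 in replicate 1, 23.7 in replicate 2 and 34.3 in the pooled list. Its summit was 1171 bp upstream, 188 bp from the start of the divergent gene R74.2, at the same base in both replicates. At the alanyl enzyme gene aars-2 the signal was 12.3, 20.3 and 33.8 in the same order, 216 bp upstream. At the valyl enzyme gene vars-1 it was 8.78, 22.3 and 30.8, with the pooled summit 116 bp upstream. The replicate 1 value of vars-1 came from a summit 1687 bp inside the gene, and that list had none within 200 bp of the pooled summit. At the glycyl enzyme gene gars-1 it was 16.8, 15 and 30.7, in an intron 382 bp from the start. By rank, replicate 2 placed lars-1 (498 against 10709), aars-2 (1032 against 1825) and vars-1 (683 against 6910) higher, and replicate 1 placed gars-1 higher (469 against 4501).

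The synthetase genes next in pooled signal lay outside this set, from rank 1344 at rars-1 to rank 4630 at kars-1. Pooled signals were 27.3 at rars-1, 27.2 at mars-1, 26.4 at tars-1, 25.3 at fars-1, 21.3 at dars-1 and 20.7 at kars-1. A pooled signal of 20 or more was reached by 22.3% of all protein-coding genes. At fars-1, for a phenylalanyl enzyme subunit, replicate 1 had 22.1 at rank 176 and replicate 2 no summit. The fars-1 summit lay in its coding sequence. At rars-1 the summit was 932 bp upstream, 101 bp from the start of the RNA polymerase subunit gene rpb-8. The median strongest pooled signal, over genes with a summit only, was 21.0 for the 16 of 20 synthetase genes numbered 1, 14.8 for the 10 of 11 numbered 2 and 17.1 for all protein-coding genes. The number in a symbol does not by itself tell a cytosolic from a mitochondrial enzyme.

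**Figure D3:**
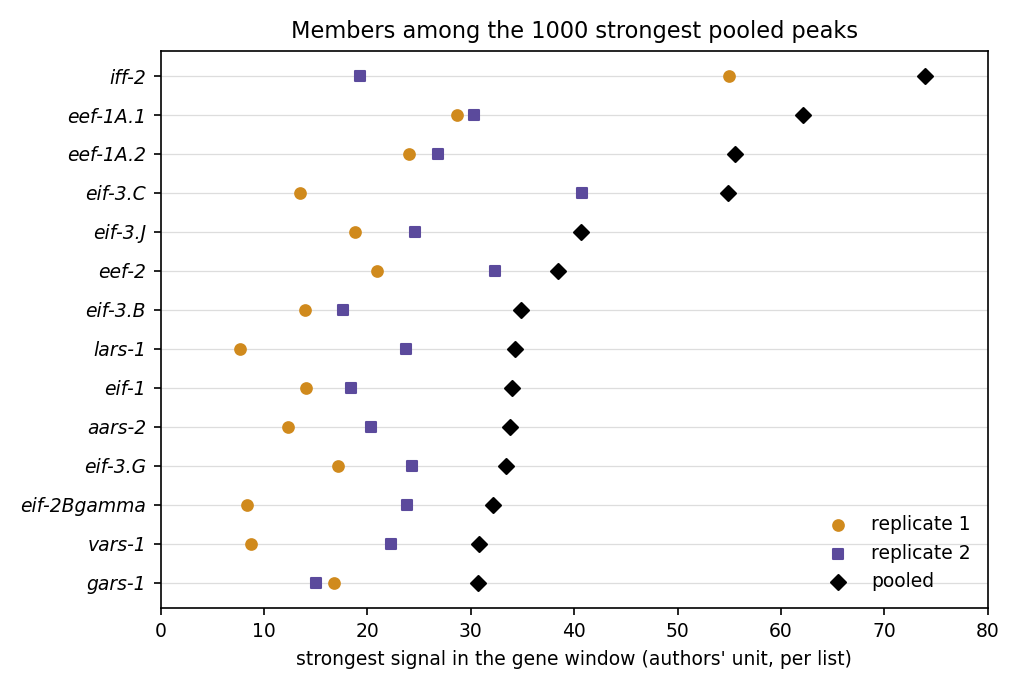
Strongest signal in the gene window (x axis, authors' unit) in the replicate 1, replicate 2 and pooled lists for the 14 members among the 1000 strongest pooled peaks, ordered by pooled rank. At iff-2 replicate 1 (55.0) exceeds replicate 2 (19.3), at eif-3.C replicate 2 (40.8) exceeds replicate 1 (13.5), and at eef-1A.1 the values are 28.7 and 30.3.

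Fewer members were high in both replicates than in the pooled list. A summit among the 1000 strongest was present in 10 members in replicate 1 (14.3%, against 5.01% of all genes) and in 11 in replicate 2 (15.7%, against 5.16%), and in both in 5 (7.14%, against 1.76% of all genes): eef-1A.1, eef-1A.2, eif-3.J, eef-2 and eif-3.G. The shares for both replicates did not require summits at the same site, and at eif-3.G the strongest ones lay 828 bp apart. In replicate 1 alone the further members were iff-2, gars-1, fars-1, eef-1B.1 and ife-4, and in replicate 2 alone eif-3.C, lars-1, eif-2Bgamma, vars-1, mars-1 and eif-3.K. Any summit was listed for 49 members in replicate 1 (70.0%, against 57.8% of all genes) and for 57 in replicate 2 (81.4%, against 72.7%). Both lists had one for 38 members (54.3%, against 47.1%), but members were the lower with gene bodies only (20%, against 24.5%) and with the nearest start (31.4%, against 42.9%). In 27 of the 70 (38.6%, against 23.0%) the replicates had summits within 200 bp of each other.

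At the level of single genes the replicates were loosely related. Over the 38 members in both lists, Spearman's rho of the strongest signal was 0.451 and Pearson's r of its log2 was 0.449, and over the 9408 genes in both lists they were 0.277 and 0.498. The strongest summit in the window was taken from each list, so paired values could come from different sites, as at vars-1 (1803 bp apart). All points come from the same 2 libraries, and genes are not replicates. Of the 14 members among the 1000 strongest pooled peaks, 12 had a summit within 200 bp of the pooled one in both replicate lists, vars-1 and eif-3.G being the exceptions. Of the other 44 members with a pooled summit, 11 did, 18 had one in replicate 2 only, 12 in replicate 1 only and 3 in neither. Pooled signals of these 44 ran from 11.6 at yars-2 to 27.3 at rars-1. Of the 12 members without a pooled summit, 5 were listed in replicate 1 only, 5 in replicate 2 only, eif-3.D in both and ife-5 in neither. These counts by pooled summit are not given here over all protein-coding genes, so they do not set the members apart from other genes.

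Strong summits of translation genes lay mostly upstream of the start. This held for 12 of the 14 members among the 1000 strongest (85.7%), eef-2 and gars-1 being inside the gene, and for 67.1% of the 1041 protein-coding genes in that range. Within 1000 bp upstream were 10 of the 14 (71.4%, against 45.6%). Among the 44 members with weaker pooled summits, 26 had the strongest one upstream, with no share given here for weaker summits of all genes. The start of the member itself was the nearest protein-coding start for 11 of the 14 (78.6%, against 62.0%), and the exceptions were eef-1A.1, lars-1 and eif-1. For 8 of the 14 the summit also lay in the window of another protein-coding gene. No such share is given here over all genes, so whether 8 of 14 is usual cannot be told.

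**Figure D4:**
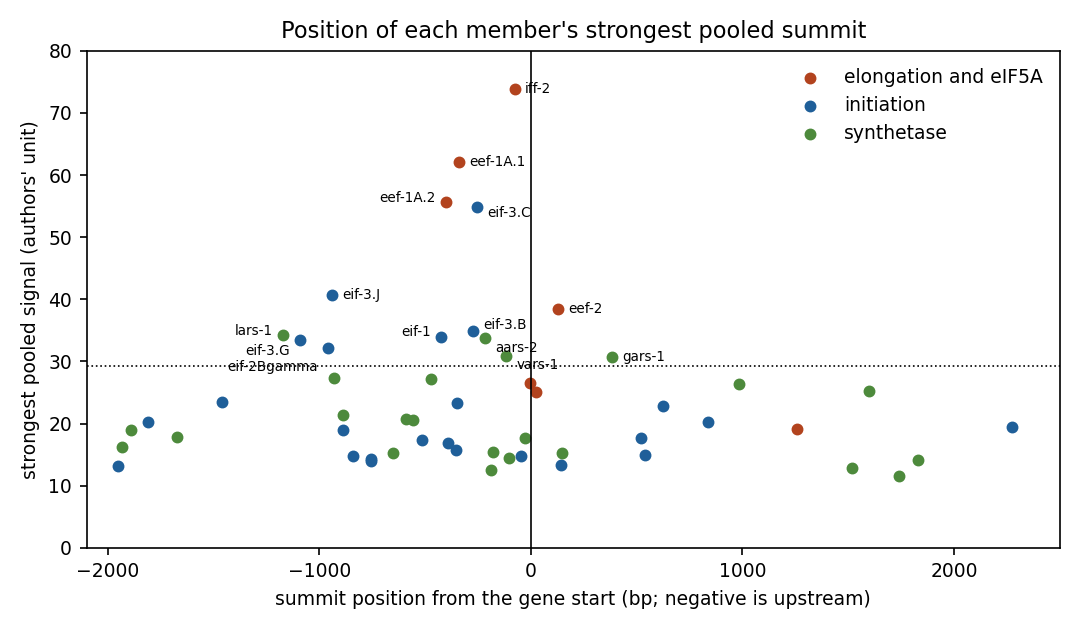
Position of each member's strongest pooled summit from the gene start (x axis, bp, upstream negative) against its signal (y axis, authors' unit), coloured by role, with names for the 14 above the dotted line of rank 1000. The plot shows 54 of 58 members, and 4 lie beyond 2500 bp. The thresholded genes iff-2, eef-1A.1, eef-1A.2 and eif-3.C lie 77 to 399 bp upstream.

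The short words differed from gene to gene. CGCGCA was within 50 bp of the eif-3.C and eif-3.B summits, a word found at 1.75% of nuclear pooled summits and 6.77% of the 975 nuclear ones among the 1000 strongest. TAATTA was at the eef-2 summit, the only one of the 14 (5.13% of the 975), and TAATTG at vars-1 and eef-1A.2. No word of the 5 was near the summits of eif-3.J, lars-1, eif-1, aars-2, eif-3.G, eif-2Bgamma or gars-1. Over 200 bp to each side, the 14 summits averaged 36.8% ± 6.07 (SD) G and C, and the 975 averaged 38.5% ± 5.57 (SD). It ranged from 30.2% at gars-1 to 48.9% at eef-1A.2.

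Translation genes outside the symbol rule were counted too. Of 20 listed, 18 were matched by symbol. A thresholded summit was present at 1 of them (5.56%, against 1.25% of all genes). At 4 there was a summit among the 1000 strongest (22.2%, against 5.21%). These shares were near those of the members, 5.71% and 20%. The translational repressor gene ifet-1 had 19.7 in replicate 1, 29.2 in replicate 2 and 46.8 in the pooled list, 448 bp upstream. At drr-2, an eIF4H-like factor gene, the pooled signal was 40.2. At efk-1, for the kinase that acts on eEF2, it was 30.8, and at tufm-1, a mitochondrial elongation factor gene, 30. The eIF4G gene ifg-1 had 22.3 and the eIF4A gene inf-1 19.7, both below rank 1000.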

How the data were processed

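Peak lists were used as the authors deposited them: 1 list per replicate, 1 from pooled replicates and the list passed by IDR, all on ce11 per the labels. Each deposited list holds the authors' signal and, where a q-value would stand, a score. In the pooled list 29528 scores are below 0, so none was read as a probability. The control was not analysed here. Neither aligner nor caller is stated: not given in the sources used here.

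Summits (1-based) were placed in gene windows from Ensembl release 115 (WBcel235, the ce11 build). No peak ran past a chromosome end of the RefSeq genome. Summits match within 200 bp. Assignment was tested on simulated data. Members, words and the pathway list were chosen with earlier results of these data known. Named were members with thresholded summits, those among the 1000 strongest peaks, the next by pooled signal up to 25, and always the eef-1A, eef-2, iff- and ife- genes. Beyond that rule, the remaining eIF3, eIF2B and eIF2 genes, eef-1B.2, eef-1G and yars-2 were named after their values were seen. Every value is a description and no test was made. Alternatives covered windows, assignment, thresholds, matching distance, build and each replicate alone. Python 3.11.15, numpy 2.4.6, pandas 2.3.3, scipy 1.17.1, matplotlib 3.10.9 and Biopython 1.88 were used.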

Additional observations from a re-analysis of the deposited data

How the results depend on the processing

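Of 71 alternative values, 49 stayed within 1.5 times the reported count, density or median, or within 0.1 of the rank correlation. The order of members and all genes changed in some. Assigned to the nearest start, 38 members had a pooled summit (54.3%, against 67.6% of all genes) and 22 were in both lists (31.4%, against 42.9%), so members were the lower in both. With gene bodies only, thresholded members fell to 0 (against 0.345%), pooled to 33 (47.1%, against 47.3%), those among the 1000 strongest to 3 (4.29%, against 1.85%), those in both lists to 14 (20%, against 24.5%), matching ones to 10 (14.3%, against 11.8%) and the density to 1.87 (against 2.77). In gene bodies only, the median strongest pooled signal was lower for members, at 15.2 (against 16.2). With the full window it was higher, at 19.6 (against 17.1). With 2000 bp upstream only, 17 matched (24.3%, against 12.8%) and the density was 4.79 (against 3.47). Counted by own start nearest to the strongest summit, 33 had a pooled summit, with no value computed over all genes.

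Without each replicate in turn, members with a summit in the 214 strongest peaks numbered 3 to 6 (4.29% to 8.57%, against 1.16%), any summit 49 to 57 (70% to 81.4%, against 57.8% to 72.7%) and one among the 1000 strongest 10 to 11 (14.3% to 15.7%, against 5.01% to 5.16%). The median signal was 9.21 to 14.4 (against 8.68 to 12.4), on lists of another scale. The density was 2.45 to 2.73 per 10 kb. It was above that of all genes without replicate 2 (1.98) and below it without replicate 1 (3.02).

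In the stronger 50% of each list, 2 members were thresholded (2.86%, against 0.535%), 25 in both (35.7%, against 23.5%) and 14 matching (20%, against 10.3%), and rho was 0.250. Among the 500 strongest peaks there were 8 members (11.4%, against 2.64%), and among the 5000 strongest 26 (37.1%, against 21.2%). Among the 5000 strongest of each replicate 15 were in both (21.4%, against 9.12%) and 12 matched (17.1%, against 4.62%), and 16 matched within 50 bp (22.9%, against 11.3%). With the score in place of the signal, rho was 0.153. Stricter lists and narrower windows hold fewer peaks by construction, and for the remaining changes the cause was not tested. For all 4 thresholded members the ce10 list held a peak on the same chromosome with the same signal to 0.1%. No paired analysis was possible because there is 1 group. No read counts were given, and what depth limits was not examined.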
